A study of Mus musculus with 12 samples.

Results

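The immediate early transcription factors Fos, Fosb, Jun, Junb, Egr1, Egr2, Egr3, Ier2, Atf3 and Nr4a1 were followed in mouse alveolar macrophages, which patrol and clear the air spaces of the lung, after repeated ozone. The 10 genes were taken by symbol from the deposited expression table, which lists 55291 gene symbols. All 10 are among the 19633 genes kept for testing, and no mouse lay at the lowest shared value in any of them. The cells came from female C57BL/6NJ mice aged 8 to 11 weeks. Ozone at 0.8 ppm was breathed by 6 of them, 4 h a day over 4 days in a row, and the other 6 had received filtered air on the same schedule. Lungs were taken 3 days after the last exposure, and the macrophages were flow-sorted in 2 batches with 3 mice of each group in each batch, so each library is 1 mouse and the spread between replicates is that between animals. The series asks how these cells differ in a lung made tolerant by repeated exposure.

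Immediate early genes are transcribed within minutes of a stimulus from factors already present in the cell, such as serum response factor with its ternary complex partners and CREB, and their messages are short-lived. FOS and JUN proteins pair through leucine zippers into AP-1, ATF3 belongs to the same bZIP class, the EGR proteins are zinc finger factors, and NR4A1 is an orphan nuclear receptor. In macrophages these genes are known to respond to microbial products, growth factors, adhesion and stress, and several of them are also known to be induced while tissue is digested and cells are sorted.

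Each value is variance-stabilized expression on a log2 scale, and the deposited values are centred gene by gene so that filtered-air mice average 0. Because centring removes abundance, levels cannot be ranked between genes and the total depth is unknown. The first step above the lowest shared value, taken as 1 read, was between 0.0973 and 0.115 in a library. It was measured only in genes where several mice of a batch lay at that value, and none of the 10 genes is such a gene. Their differences therefore cannot be turned into reads, and differences are compressed in genes with few reads. In bulk RNA from sorted cells, fewer cells expressing a gene and less RNA per cell cannot be told apart.

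RefSeq promoter windows of 300 bases (GRCm38.p6, the build named mm10 in the submitters' processing notes) were found for 7 of the 10 genes. They run from 250 bases before to 50 after an annotated start. Egr2 has several annotated starts, and the window shown is that at 67537619. In Atf3, Egr2 and Nr4a1 the start of the window shown lies inside the gene span given below. The windows of Fos and Atf3 are shown because these genes rose after ozone, and those of Egr2 and Nr4a1 because their values followed each other most closely over mice. Capitals mark the TGACG core of the cAMP response element (CRE), the EGR site GCGNGGGCG and the CArG box, the element bound by serum response factor, on either strand.
Fos, chr12:85473640-85473939, plus strand: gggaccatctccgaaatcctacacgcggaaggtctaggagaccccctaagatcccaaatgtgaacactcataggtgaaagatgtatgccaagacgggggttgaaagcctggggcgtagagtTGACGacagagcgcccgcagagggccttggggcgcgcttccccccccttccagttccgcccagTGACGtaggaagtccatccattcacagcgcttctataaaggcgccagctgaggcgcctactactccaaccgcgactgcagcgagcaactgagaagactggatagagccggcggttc
Atf3, chr1:191183284-191183583, minus strand: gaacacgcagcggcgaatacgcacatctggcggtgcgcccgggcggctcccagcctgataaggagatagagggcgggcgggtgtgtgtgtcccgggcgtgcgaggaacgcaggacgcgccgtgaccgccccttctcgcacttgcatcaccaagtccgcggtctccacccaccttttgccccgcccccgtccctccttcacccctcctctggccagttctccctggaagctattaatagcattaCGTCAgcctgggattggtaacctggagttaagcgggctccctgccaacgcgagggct
Egr2, chr10:67537619-67537918, plus strand: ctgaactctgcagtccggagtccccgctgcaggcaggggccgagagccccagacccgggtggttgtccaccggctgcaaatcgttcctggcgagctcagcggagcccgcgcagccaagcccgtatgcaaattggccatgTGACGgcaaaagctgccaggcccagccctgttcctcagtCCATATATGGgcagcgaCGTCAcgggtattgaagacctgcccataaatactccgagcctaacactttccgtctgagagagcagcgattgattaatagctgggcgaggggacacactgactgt
Nr4a1, chr15:101266596-101266895, plus strand: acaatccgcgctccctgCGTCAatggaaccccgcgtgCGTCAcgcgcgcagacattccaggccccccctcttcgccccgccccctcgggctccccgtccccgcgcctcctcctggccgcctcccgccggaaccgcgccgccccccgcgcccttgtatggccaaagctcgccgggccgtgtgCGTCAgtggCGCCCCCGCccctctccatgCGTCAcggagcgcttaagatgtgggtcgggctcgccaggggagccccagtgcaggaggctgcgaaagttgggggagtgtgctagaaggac
The TGACG core was present in the windows of 6 of the 7 genes and in 20.8% of all 32851 promoter windows of that length. The core lay 129 and 66 bases before the start of Fos, and 7 bases before the start used for Atf3. The Egr2 window shown held the core on both sides of a CArG box that lay 72 bases before that start. A CArG box was found in 1.63% of all windows. The Egr2 window at chr10:67535249-67535548, near the outer start of the gene, held none of the motifs searched. The EGR site was found in Nr4a1 and Fosb and in 5.55% of all windows. Neither the complete CRE (TGACGTCA, 1.79% of all windows) nor the AP-1 site (TGANTCA, 7.81%) was found in a member's window. A match describes the letters in the window and is not a measured binding site.

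The immediate early genes differed in both directions after ozone. Fos and Atf3 rose, Egr3 and Ier2 fell, and the other 6 did not pass the test. By limma over all genes kept, 4 of these 10 passed the adjusted p threshold of 0.05, where 4.25% of all genes did. The 2 that rose compare with 2.41% of all genes called higher, and the 2 that fell with 1.84% called lower. The 10 genes were chosen with earlier results of these data known, so these shares are descriptions and do not test enrichment. The median difference over the 10 genes was 0.019, and that over all genes kept was -0.0033, because 5 of the 10 lay above 0 and 5 below. Their median absolute difference was 0.27, beside 0.046 over all genes kept. Ozone and filtered-air mice were fully separated in Fos and Atf3, and this held for 3.53% of all genes.

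**Figure D1:**
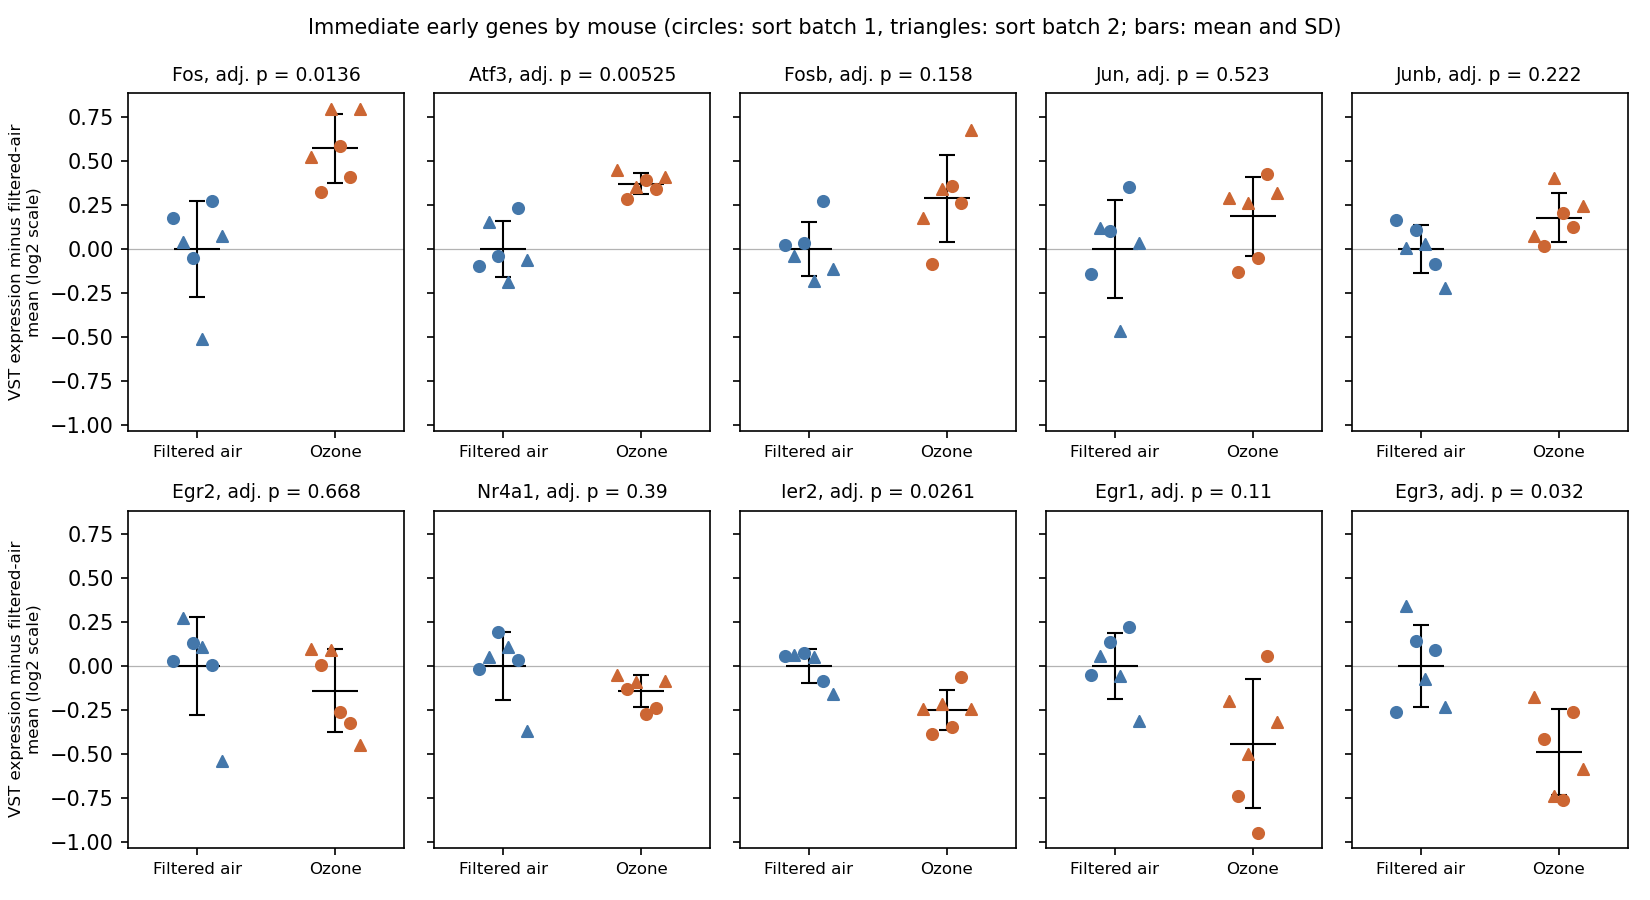
Variance-stabilized expression relative to the filtered-air mean (log2 scale) of each immediate early gene, 1 point per mouse, with circles for sort batch 1, triangles for sort batch 2, and bars for the mean and SD of 6 mice. All 6 ozone mice lie above all 6 filtered-air mice in Fos and Atf3, and 5 of 6 lie below them in Egr3 and Ier2. In Egr3, ozone mouse 5 (-0.263) is almost level with filtered-air mouse 1 (-0.261).

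Among the AP-1 genes, Fos, which encodes the c-Fos subunit, showed the largest difference (chromosome 12, 85473890 to 85477273 on the plus strand). Filtered-air mice lay between -0.51 and 0.27 with a median of 0.057, and ozone mice between 0.32 and 0.79 with a median of 0.55. The lowest ozone mouse, mouse 2, was thus above the highest filtered-air mouse, mouse 5. Fos rose by 0.57 (SE 0.12, 95% interval 0.32 to 0.82, adjusted p = 0.0136 in limma), from 0 ± 0.27 to 0.57 ± 0.20 (SD, n = 6 each). Filtered-air mouse 4 stood lowest at -0.51, and without it the rise was 0.46. Dropping any 1 of the 12 mice kept the call, with an adjusted p of at most 0.0394. Quantile normalization ended it at a difference of 0.49 (adjusted p = 0.14).

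The Fos difference was 0.31 in sort batch 1 (adjusted p = 0.242 in limma) and 0.83 in batch 2 (adjusted p = 0.139), so neither batch passed alone. The gap between these, 0.53, had an unadjusted p of 0.0196 in limma's interaction test and an adjusted p of 1.00. In that test 0 of the 19633 genes passed, with 510 at an unadjusted p under 0.05. Of the immediate early genes, Fos and Fosb were the 2 with an unadjusted interaction p under 0.05.

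Atf3, a stress-inducible bZIP factor known as a brake on inflammatory transcription in macrophages, rose with the narrowest spread among ozone mice (chromosome 1, 191170296 to 191218039 on the minus strand). The filtered-air range was -0.18 to 0.23 with a median of -0.051, and ozone mice lay between 0.28 and 0.45 with a median of 0.37. The ozone mice were close together and all above the filtered-air mice. Atf3 rose by 0.37 (SE 0.065, 95% interval 0.23 to 0.51, adjusted p = 0.00525 in limma), to 0.37 ± 0.057 against 0 ± 0.16 (SD, n = 6 each). Its difference was 0.31 in batch 1 and 0.43 in batch 2, and neither passed alone (adjusted p = 0.189 and 0.157). Among the 10 genes it had the smallest p-value, and its call held whichever of the 12 mice was dropped. Quantile normalization ended it at a difference of 0.30 (adjusted p = 0.11).

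Fosb, the close relative of Fos (chromosome 7, 19302696 to 19310051, minus strand), had a positive difference that missed the threshold. In filtered air its values ran from -0.18 to 0.27 with a median of -0.0076, and ozone mice between -0.08 and 0.67 with a median of 0.30. Ozone mouse 6 was the highest, and 3 of the 6 ozone mice, 1, 2 and 5, lay within the filtered-air range. The difference was 0.29 (SE 0.10, 95% interval 0.063 to 0.51, adjusted p = 0.158 in limma). It was 0.066 in batch 1 and 0.51 in batch 2, and without ozone mouse 2 it was 0.37 and passed the threshold (adjusted p = 0.0402).

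The Jun genes encode the partners of Fos proteins in AP-1. For Junb (chromosome 8, 84974484 to 84978718, minus strand), filtered-air mice lay between -0.22 and 0.17 and ozone mice between 0.016 and 0.40, with all 6 ozone mice above the filtered-air mean. Its difference was 0.18 (SE 0.073, 95% interval 0.022 to 0.33, adjusted p = 0.222 in limma). For Jun (chromosome 4, 95049034 to 95052222, minus strand), filtered-air mice lay between -0.46 and 0.35 and ozone mice between -0.13 and 0.43. These ranges overlapped almost entirely, and 4 of the 6 ozone mice were above the filtered-air mean. The difference was 0.19 (SE 0.13, 95% interval -0.083 to 0.45, adjusted p = 0.523 in limma), with -0.023 in batch 1 and 0.39 in batch 2. Without filtered-air mouse 4, which was the lowest of its group in Fos, Fosb, Jun and Atf3, the Jun difference was 0.082.

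The Egr genes lay on the other side of 0. Egr3 fell (chromosome 14, 70077203 to 70082614, plus strand). Its filtered-air mice lay between -0.26 and 0.34 with a median of 0.0067, and ozone mice between -0.76 and -0.17 with a median of -0.50. Ozone mouse 1 lay within the filtered-air range, and ozone mouse 5, at -0.263, was almost level with its lowest mouse, at -0.261. Egr3 fell by 0.49 (SE 0.12, 95% interval of the difference -0.74 to -0.23, adjusted p = 0.032 in limma), to -0.49 ± 0.25 against 0 ± 0.23 (SD, n = 6 each). The difference was -0.47 in batch 1 and -0.51 in batch 2, and neither passed alone (adjusted p = 0.226 and 0.411). The call was marginal. Dropping filtered-air mouse 2, 3 or 5 or ozone mouse 2, 3, 4 or 6 ended it, with differences from -0.56 to -0.41 and an adjusted p of at most 0.0817 over all 12 such fits, and at an unchanged difference it was lost with no filter on low values (adjusted p = 0.0541) or a robust prior (adjusted p = 0.0523). Quantile normalization gave -0.42 (adjusted p = 0.212).

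Egr1, the prototype of the family, had a difference of similar size with a wider spread. Values in filtered air ran from -0.31 to 0.22, and ozone mice between -0.94 and 0.055 with a median of -0.41. The lowest were ozone mouse 4 at -0.94 and ozone mouse 2 at -0.74, and 4 of 6 ozone mice were below every filtered-air mouse, while ozone mice 1 and 5 lay inside the filtered-air range. The difference was -0.44 (SE 0.14, 95% interval -0.75 to -0.13, adjusted p = 0.11 in limma), and without ozone mouse 5 it was -0.55 with an adjusted p of 0.0306. It was -0.65 in batch 1 and -0.24 in batch 2.

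Egr2 overlapped between the groups (chromosome 10, 67535475 to 67542188, plus strand). Its filtered-air mice lay between -0.54 and 0.27 and its ozone mice between -0.45 and 0.096, with 3 ozone mice on each side of the filtered-air mean. The difference was -0.14 (SE 0.13, 95% interval -0.41 to 0.13, adjusted p = 0.668 in limma). It was -0.26 without filtered-air mouse 6, -0.08 without filtered-air mouse 2 and -0.071 without ozone mouse 6. These intervals allow a fall in Egr2 nearly as large as the one measured in Egr3, so a difference between the Egr genes was not shown.

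Ier2, which encodes a short-lived nuclear regulator of transcription, fell (chromosome 8, 84661331 to 84662852, minus strand). Filtered-air mice lay between -0.16 and 0.074 with a median of 0.054, and ozone mice between -0.38 and -0.062 with a median of -0.24. Again 5 of 6 ozone mice were below every filtered-air mouse, and ozone mouse 5 was the exception. Ier2 fell by 0.25 (SE 0.058, 95% interval of the difference -0.37 to -0.12, adjusted p = 0.0261 in limma), to -0.25 ± 0.11 against 0 ± 0.097 (SD, n = 6 each). The difference was -0.28 in batch 1 and -0.22 in batch 2. Dropping filtered-air mouse 1, 2, 3 or 4 or ozone mouse 2 or 4 ended the call, with differences from -0.29 to -0.22 and an adjusted p of at most 0.0662 over all 12 such fits. Quantile normalization gave -0.21 (adjusted p = 0.171).

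Nr4a1, the nuclear receptor also called Nur77, lay below the filtered-air mean in all 6 ozone mice without passing the test (chromosome 15, 101254269 to 101274795, plus strand). Filtered-air mice lay between -0.37 and 0.19, and ozone mice between -0.27 and -0.05. Filtered-air mouse 6 was below every ozone mouse. The difference was -0.15 (SE 0.078, 95% interval -0.31 to 0.023, adjusted p = 0.39 in limma), and without that mouse it was -0.23 with an adjusted p of 0.0188. It was -0.28 in batch 1 and -0.0063 in batch 2.

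**Figure D2:**
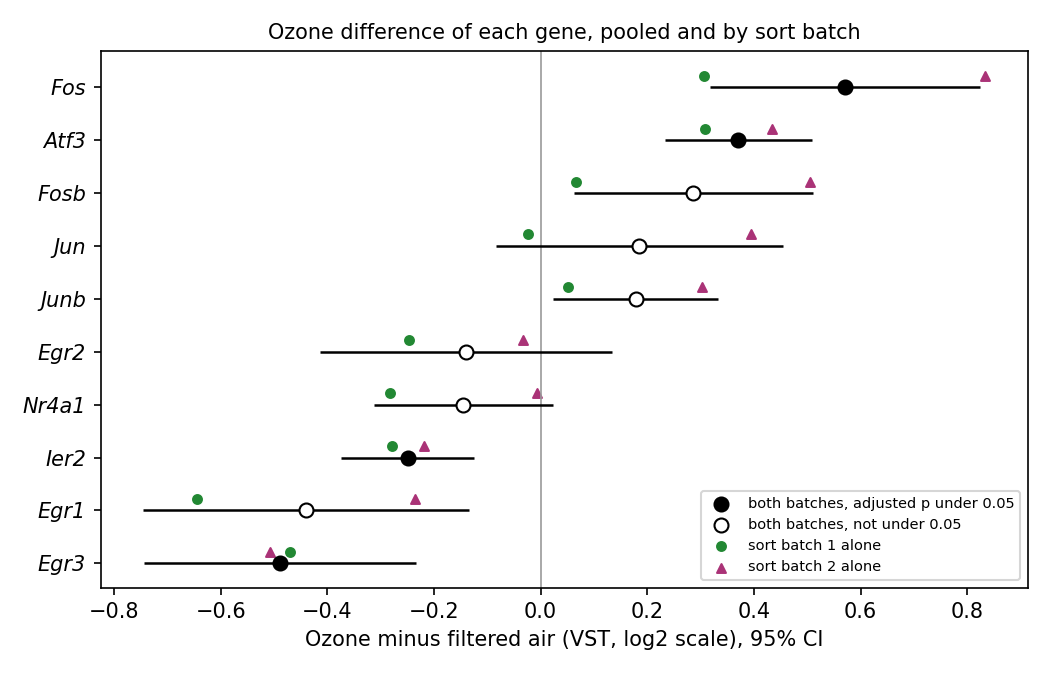
Difference between ozone and filtered air (log2 scale) of each immediate early gene, with the 95% interval over both batches and the difference within each sort batch. Filled points mark an adjusted p under 0.05, and Jun is the gene whose batch differences, -0.023 and 0.39, lie on opposite sides of 0.

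The distance between Fos and the Egr genes could be followed within single mice. On the relative scale, Fos exceeded Egr3 by 0.67 to 1.53 in the 6 ozone mice (median 1.04), while in filtered-air mice the difference lay between -0.43 and 0.44. Fos exceeded Egr1 by 0.35 to 1.53 in ozone mice (median 1.08), beside -0.46 to 0.39 in filtered-air mice. The Fos and Egr3 differences of the groups did not overlap, whereas those of Fos and Egr1 did, through ozone mouse 5. These pairs were chosen after the values had been seen and were not tested.

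Covariation over mice was examined because these genes are known to be induced while cells are isolated. The immediate early genes varied widely already among filtered-air mice, with SDs between the 72.0 percentile of all genes kept (Ier2) and the 99.1 percentile (Egr2). The median SD was 0.19 in these genes and 0.075 over all genes kept, on a scale that compresses genes with few reads. For each pair of members, deviations from the group means were correlated over 12 mice. The median Pearson r of the 45 pairs was 0.31, with 34 pairs above 0, and the mean was 0.26 beside 0.00026 over all pairs of genes kept. Without filtered-air mouse 6 the median was 0.11, and with deviations taken from the means of group and batch together it was 0.18. Filtered-air mouse 6 lay below its group mean in 8 of the 10 genes.

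**Figure D3:**
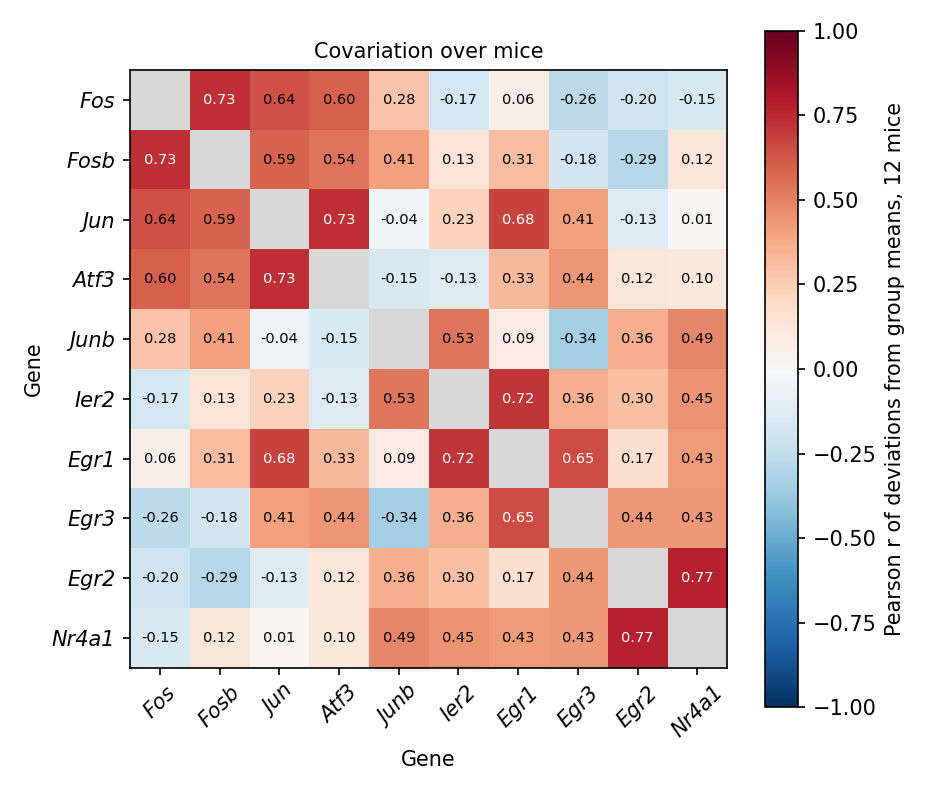
Pearson r of deviations from the group means over 12 mice for each pair of immediate early genes, from blue (negative) to red (positive). Fos, Fosb, Jun and Atf3 form 1 block of positive values, Egr1 is high with Ier2, Egr3 and Jun, and Fos is near or below 0 with Ier2 and all 3 Egr genes.

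Medians of r were set side by side for pairs on the same side of 0 in the ozone comparison and pairs across it. Among the 5 genes with a positive difference, the median r of the 10 pairs was 0.56, with a range from -0.15 (Junb and Atf3) to 0.73. Among the 5 with a negative difference it was 0.43, with a range from 0.17 to 0.77. Between these sets, over 25 pairs, the median was 0.10 and values ranged from -0.34 (Junb and Egr3) to 0.68 (Jun and Egr1). With deviations taken from the means of group and batch together, the medians were 0.46 and 0.45 within the sets and -0.14 between them, where 14 of the 25 pairs were below 0. Group means had been removed, so the ozone difference itself does not enter these values, but the sets were formed from its sign. The ranges overlap, and the difference between the medians was not tested.

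Single pairs stood out without passing correction. P-values are two-sided, from 100000 permutations of mice within groups, adjusted over the 45 pairs. Fos and Fosb had r = 0.73 (permutation p = 0.00519, adjusted p = 0.15) and rho = 0.76 (permutation p = 0.00837, adjusted p = 0.126), with r = 0.75 in batch 1 and r = 0.52 in batch 2. Jun also had r = 0.68 with Egr1 (permutation p = 0.0128, adjusted p = 0.15) and rho = 0.78 (permutation p = 0.00611, adjusted p = 0.126), with r = 0.87 in batch 1 and r = -0.028 in batch 2, so this relation did not hold within batch 2. Jun and Atf3 had r = 0.73 (permutation p = 0.0104, adjusted p = 0.15) and rho = 0.76 (permutation p = 0.00593, adjusted p = 0.126), with r = 0.61 and r = 0.84 in the batches. Egr1 and Ier2 had r = 0.72 (permutation p = 0.0134, adjusted p = 0.15) and rho = 0.57 (permutation p = 0.0538, adjusted p = 0.465), with r = 0.75 and r = 0.67 in the batches. Egr2 and Nr4a1 had the highest r, 0.77 (permutation p = 0.0215, adjusted p = 0.183), and rho = 0.52 (permutation p = 0.0946, adjusted p = 0.465), with r = 0.75 and r = 0.79. Without the 2 mice farthest from the median of the gene named before the other, r became 0.65 for Fos and Fosb, 0.79 for Jun and Egr1, 0.56 for Jun and Atf3, 0.52 for Egr1 and Ier2, and 0.72 for Egr2 and Nr4a1. Fos and Jun, with r = 0.64 (permutation p = 0.0454, adjusted p = 0.227) and rho = 0.46 (permutation p = 0.158, adjusted p = 0.484), rested on such mice, since r was 0.050 without them and 0.11 in batch 1 against 0.88 in batch 2. Egr1 and Egr3 had r = 0.65 (permutation p = 0.0311, adjusted p = 0.2) and rho = 0.72 (permutation p = 0.0176, adjusted p = 0.198). Their r was 0.77 in batch 1, 0.90 in batch 2 and 0.525 without such mice. Fosb had r = 0.54 with Atf3 (permutation p = 0.0243, adjusted p = 0.183). With Jun its r was 0.59 (permutation p = 0.0442, adjusted p = 0.227). No other pair had an r with a permutation p under 0.05.

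The closest other genes were sought by their r with the mean deviation of the 10 members over 12 mice. The 10 closest of the 19623 other genes had r from 0.87 to 0.90 and included Slc16a10, an aromatic amino acid transporter (r = 0.89, rho = 0.90), and Hcfc1, a transcriptional coregulator (r = 0.88, rho = 0.76). They also included Pot1a, Fscn3, Lrrc14b and several unnamed transcripts, and none is in a list used here. These genes were selected on this value out of the whole table, so no test is given.

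Genes known to rise with heat shock or during tissue dissociation, other than the immediate early genes, were set beside these results. None of these 18 passed the adjusted threshold in limma, beside 4.25% of all genes, and 5 had an unadjusted p under 0.05, beside 3283 of the 19633 genes kept. The median difference was 0.026. Hsph1, a heat shock protein, had the smallest p-value of the list, at a difference of 0.23 (SE 0.067, adjusted p = 0.0702 in limma). The mean level of the list lay between -0.062 and 0.11 in filtered-air mice and between -0.032 and 0.072 in ozone mice. Over mice, the median r of these 18 genes with the mean deviation of the immediate early genes was 0.039, beside -0.0028 over all other genes. The part of handling in the ozone differences was not tested.

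Other members of the pathway were counted from lists of related genes, and limma called 4.25% of all genes. The lists were chosen with earlier results of these data known, so the counts are descriptions and do not test enrichment. Of 12 other AP-1 subunits, 1 fell and 0 rose, with a median difference of -0.070 and 10 of 12 below 0. The one called was Jdp2, a repressor that competes with other AP-1 dimers. Its filtered-air mice lay between -0.20 and 0.28 and its ozone mice between -0.67 and -0.40, with no overlap. Jdp2 fell by 0.53 (SE 0.073, adjusted p = 0.0016 in limma).

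Of 37 other immediate early genes, 2 rose and 1 fell, with a median of -0.0083. Dusp1, a phosphatase that switches off p38 and JNK, lay between -0.42 and 0.30 in filtered-air mice and between 0.31 and 1.14 in ozone mice. The groups did not overlap. Dusp1 rose by 0.66 (SE 0.15, adjusted p = 0.0206 in limma), with differences of 0.62 in batch 1 and 0.69 in batch 2 that did not pass alone, and lost its call without filtered-air mouse 1 or ozone mouse 3 (adjusted p at most 0.055). Zfp36, which encodes the mRNA-destabilizing protein tristetraprolin, rose by 0.33 (SE 0.081, adjusted p = 0.0354 in limma). Its difference was 0.11 in batch 1 (adjusted p = 0.514) and 0.54 in batch 2 (adjusted p = 0.139), and the interaction had an unadjusted p of 0.00308 and an adjusted p of 1.00 in limma. Klf10, a TGF-beta-inducible zinc finger factor, fell by 0.34 (SE 0.086, adjusted p = 0.0392 in limma). The calls of Zfp36 and Klf10 held in 5 and 3 of the fits that dropped 1 of the 12 mice.

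Of 27 upstream kinases and promoter-binding factors, 0 rose and 1 fell, a share of 3.70%, with a median of 0.0020. The one called was Elk4, a ternary complex factor that binds promoters with serum response factor. It fell by 0.17 (SE 0.044, adjusted p = 0.0408 in limma) with all 6 ozone mice below all 6 filtered-air mice, and its call held in 4 of the fits that dropped 1 of the 12 mice.

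Of 15 feedback inhibitors, 3 fell and 0 rose, with a median of -0.029. Dusp1 and Zfp36, which also act as feedback inhibitors and rose, were counted with the immediate early genes, so the count of 0 rests on that assignment. Errfi1, an inhibitor of the EGF receptor, fell by 0.28 (SE 0.038, adjusted p = 0.00129 in limma), with ozone mice between -0.32 and -0.21 and filtered-air mice between -0.076 and 0.067. Dusp16, a phosphatase of JNK, fell by 0.43 (SE 0.095, adjusted p = 0.0185 in limma). Nab2, a corepressor of EGR proteins and itself an EGR target, fell by 0.29 (SE 0.075, adjusted p = 0.0419 in limma), and its call held in 2 of the fits that dropped 1 of the 12 mice, while those of Errfi1 and Dusp16 held in all 12.

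Of 20 known targets in macrophages, 2 rose and 1 fell, with a median of 0.069. Spp1, which encodes osteopontin, lay between -0.30 and 0.25 in filtered-air mice and between 0.54 and 0.82 in ozone mice, and rose by 0.71 (SE 0.081, adjusted p = 0.000428 in limma). Cxcl2, a neutrophil chemoattractant, rose by 0.51 (SE 0.12, adjusted p = 0.0281 in limma), with 5 of 6 ozone mice above every filtered-air mouse. Dropping filtered-air mouse 1 or 3 or ozone mouse 2 or 3 ended that call (adjusted p at most 0.0713). Plaur, the urokinase receptor, fell by 0.29 (SE 0.065, adjusted p = 0.0204 in limma) and lost its call without filtered-air mouse 1 or ozone mouse 5 (adjusted p at most 0.0557). Of the 11 genes called in the related lists, quantile normalization ended the calls of all but Jdp2, Errfi1 and Spp1. With no filter on low values Zfp36 (adjusted p = 0.0543), Klf10 (adjusted p = 0.0604) and Nab2 (adjusted p = 0.0612) lost theirs, as did Zfp36 with the RNA integrity number as a covariate (adjusted p = 0.0517).

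**Figure D4:**
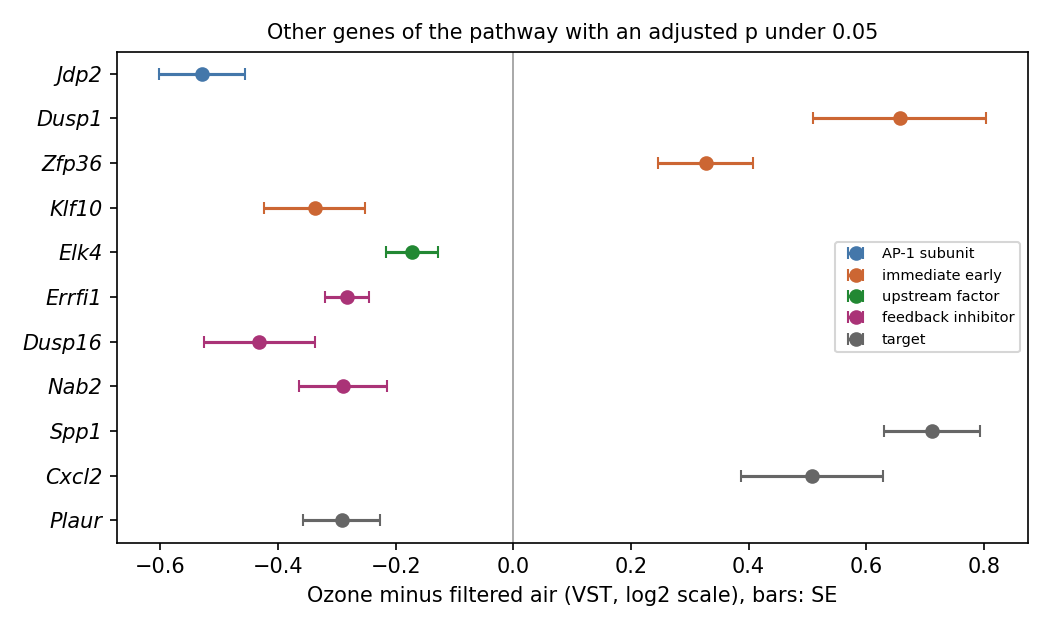
Difference between ozone and filtered air (log2 scale, bars are the SE) of the 11 genes from the lists of related genes with an adjusted p under 0.05. Dusp1, Zfp36, Spp1 and Cxcl2 lie above 0, and the other 7 below.

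The sorted cells were checked against markers. All 12 listed alveolar macrophage markers were kept, of which 2 rose (Chil3 and Car4) and 2 fell (Krt79 and Ear1). With 1 of the 12 mice dropped, the call of Krt79 held in every fit, that of Chil3 in 5, and those of Car4 and Ear1 in 4 each. Of 78 markers in 10 lists of other cell types, 69 were kept, at levels that the centred scale does not give. The neutrophil marker Camp and the eosinophil marker Epx had no variation over mice. Of the 69, 1 rose (Cxcr2) and 1 fell (Epcam), 2.90% beside 4.25% of all genes, and their median difference was -0.043. All 6 B cell markers (median -0.23), all 7 endothelial markers (median -0.091) and 6 of 7 dendritic cell markers (median -0.079) lay below 0, and all 5 erythroid markers kept lay above 0 (median 0.14), with 0 called in these lists. Mean levels of the B cell list ran from -0.25 to 0.38 in filtered air and from -0.43 to -0.069 after ozone, and those of the erythroid list from -0.11 to 0.17 and from -0.044 to 0.37. Filtered-air mouse 4, lowest in Fos, had the highest mean level of its group in 7 of the 10 lists and the lowest RNA integrity number, 8.9. Ozone mouse 6, which with mouse 3 was highest in Fos, had the highest level of its group in 5 lists. Without filtered-air mouse 4 the number of immediate early genes called was 3, without ozone mouse 6 it was 3, and with the RNA integrity number as a covariate it was 4. The part of other cells in the differences was not tested.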

How the data were processed

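Polyadenylated RNA of flow-sorted alveolar macrophages from 12 mice was sequenced as paired-end reads from a stranded library, per the labels' protocols. The authors deposited 1 table of log2 values that were variance-stabilized and batch-corrected, per its title. The submitters' processing notes name cutadapt, STAR 2.7.7a, Salmon 1.5.2, DESeq2 1.26.0, R 3.6.0, limma 3.42.2 and mm10. The annotation is not given in the sources used here. All 12 columns matched 1 sample title each, and 0 columns were left unmatched. The filtered-air mean is 0 in every gene of the deposited table. How reads of related genes were shared is not stated.

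Of 25444 genes that varied, the 19633 with at least 6 mice above the lowest value shared within a sort batch were kept. Ozone and filtered air were compared with limma 3.58.1 (R 4.3.3), with sort batch as a covariate and without a variance trend, two-sided, with Benjamini-Hochberg adjustment over all genes kept and a threshold of 0.05. The pipeline was tested on simulated data. Gene positions are from GENCODE M21 and promoter sequences from RefSeq, both on GRCm38. Besides the members, genes were named by a rule: called genes of each related list (at most 5 in each direction), otherwise the one with the smallest p-value, and the 10 genes closest to the members' mean deviation. The members and lists were chosen with earlier results of these data known. Alternatives were the filter, the batch and RNA integrity covariates, the variance prior (robust, or with a trend, which is void on centred values), quantile normalization, single batches, single mice left out and a replicate block.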

Additional observations from a re-analysis of the deposited data

Results flagged for a closer look

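In Egr2, filtered-air mouse 6 lay at -0.54, far below the other mice of its group. The gap to the next mouse took up 0.672 of the group's range, above Dixon's 95% limit for a group of 6. This was 1 of 20 combinations of gene and group examined, and chance gives about 1 in 20. Without this mouse the Egr2 difference was -0.26 in place of -0.14. The mouse was also the lowest of its group in Egr1, Junb, Ier2 and Nr4a1.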

How the results depend on the processing

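A variance trend gave 2 calls among the members, but this alternative is void, because in values centred on filtered air the mean of a gene is set by its own ozone difference. Quantile normalization left 0 of the 10 members called in limma, with 6 at an unadjusted p under 0.05, and 171 genes in all (2114 unadjusted). Batch 1 alone gave 0 members (7 unadjusted) and 90 genes (2167 unadjusted), and batch 2 alone gave 0 members (7 unadjusted) and 0 genes (1800 unadjusted). Both use fewer mice. The cause of the other changes was not tested. Jun turned to -0.023 in batch 1 alone, and the other 9 members kept their direction under every setting run. Without the batch covariate 1152 genes were called. Leaving out 1 mouse gave 2 to 5 members and 538 (without filtered-air mouse 1) to 751 genes. The lowest member count, 2, came without filtered-air mouse 2 or 3 or ozone mouse 4. The median pair r ranged from 0.11 to 0.35 without single mice and was 0.43 in filtered-air mice and 0.24 in ozone mice alone.

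Same-numbered mice are different animals. Their deviations correlated above 0.1 in 4 of 6 such pairs (up to 0.284) and lay near 0 in the others (-0.0026 and 0.0072). Pairing required all 6, so the numbers were not taken as pairs, though some shared variation is possible. With the replicate block 853 genes and 4 members were called. Egr1 gained the call (adjusted p = 0.0367) and Ier2 missed it (adjusted p = 0.0535), as did Elk4 (adjusted p = 0.104). Depth is unknown, and differences of genes with few reads are understated.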
